A study of Mus musculus with 4 samples.

Results

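Cluster 1 of the cervical draining lymph node (LN) is a group of regulatory T (Treg) cells that carries the transcript pattern of a resting state. It was taken as every cell to which the deposited LN cell table gives cluster number 1, and it held 835 of the 3963 LN cells and of the 14875 cells in the whole series. The study sorted live CD4+ TCRβ+ YFP+ cells, named Treg cells in the labels, from C57BL/6 mice at more than 95% purity and profiled them with 10x Genomics 3' single-cell libraries. The LN groups were 1 library from ICOS-deficient mice, titled ICOS FC, and 1 library from ICOS WT mice, both taken on day 1 of a response to oxazolone, a contact sensitiser. Spleen cells at steady state gave 1 library labelled ICOS FC and 1 labelled ICOS WT. The gene that drives YFP, the deleted part of Icos, the animals' age and the number of animals pooled were not given in the sources used here.

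Resting Treg cells recirculate between blood and lymphoid organs. They keep the homing receptor CCR7, the factors Klf2, Lef1, Tcf7 and Bach2 and the survival protein Bcl2, and are held to respond to IL-2. On activation they switch to an effector state with more ICOS, granzyme B, Batf, Maf and TNF receptor family members. ICOS, a relative of CD28, is a costimulatory receptor that signals through PI3K, and Foxp3 is the transcription factor on which the Treg lineage depends.

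Every genotype was 1 library, so no difference here has a replicate check and nothing was tested across animals. Values are UMIs (unique molecular identifiers, each standing for 1 captured transcript) summed over the cells of a library and given per 1000000 (CPM). Intervals are 95% intervals that cover counting error only: each UMI is taken as independent, so the spread between cells and mice is not in them. A gene is called higher or lower here where a library reached 20 CPM, the change was 1.5-fold or more and the interval left out equality. Between cluster 1 and the other cells, both libraries had to pass the fold, and no interval was asked for. For members of gene lists 5 CPM sufficed, and list medians were taken with 0.5 CPM added.

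Cluster 1 held 413 of 2066 cells, or 19.99% (18.3 to 21.8%, exact binomial), in the library labelled ICOS FC. In the library labelled ICOS WT it held 422 of 1897 cells, or 22.2% (20.4 to 24.2%). The intervals overlapped. The cells carried 2806423 UMIs in the library labelled ICOS FC and 2896305 in that labelled ICOS WT, with medians of 6439 and 6568 UMIs, 1822 and 1891.5 genes, and 3.70 and 3.87% mitochondrial counts per cell. A count of 0 in the cluster allows a level of up to 1.07 and 1.04 CPM. By the deposited phase calls, 81.8 and 84.8% of its cells were in G1, and 9 and 3 cells were in G2M. The LN libraries shared 30 cell barcodes, of which 3 belonged to cells of cluster 1 and all 3 of those cells were in the library labelled ICOS WT, with 0.0933% of its cluster 1 UMIs.

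The share depended on where the boundary to cluster 3 lay. Cluster 3 had the profile most like that of cluster 1 among the LN clusters, with a Pearson correlation of log2 CPM across genes of 0.967 in the library labelled ICOS FC and 0.961 in that labelled ICOS WT. This is a description across genes of the same libraries. Cluster 3 held 14.2% of the cells of the library labelled ICOS FC and 7.22% of those labelled ICOS WT. Clusters 1 and 3 together held 34.2% (32.1 to 36.3%) and 29.5% (27.4 to 31.6%), so that the order of the libraries for cluster 1 alone turned round.

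Icos is reported first because it checks the labels. It had 269 UMIs in the library labelled ICOS FC and 173 in that labelled ICOS WT, or 95.9 and 59.7 CPM, a log2 ratio of 0.68 (0.40 to 0.97). The targeted transcript was thus higher, not lower, in the library labelled as ICOS-deficient, which goes against the label where the transcript is concerned, and a 3' count does not show whether a functional part was deleted. The directions below rest on the labels as given. A UMI of Icos was found in 36.8% of cells (32.1 to 41.7%) in the library labelled ICOS FC and 27.7% (23.5 to 32.3%) in that labelled ICOS WT. After thinning each cell to 2000 UMIs the shares were 17.0 and 12.95%. Among the 8 LN clusters, cluster 1 stood 7th for Icos in the library labelled ICOS FC, above cluster 5 (95.7 CPM), and 8th in that labelled ICOS WT, below cluster 5 (64.7 CPM). Cluster 0, at the other end, had 1590 and 1163 CPM.

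Foxp3 had 181 UMIs (64.5 CPM) in the library labelled ICOS FC and 222 (76.6 CPM) in that labelled ICOS WT, a log2 ratio of -0.25 (-0.54 to 0.04) whose interval spans equality. Cells holding a Foxp3 UMI made up 32.7 and 35.5% of the cluster, and 13.9 and 12.7% after thinning. Within LN cells Foxp3 in cluster 1 was close to its level in the other clusters, with log2 ratios over them of -0.16 in the library labelled ICOS FC and 0.11 in that labelled ICOS WT. Treg identity genes were detected, but often below the other LN cells. Of 14, 7 were lower in cluster 1 in both libraries, 1 was higher and 6 lay between. Their median log2 ratios over the other LN cells were -0.92 in the library labelled ICOS FC and -0.77 in that labelled ICOS WT. By the same rule, 21.4% of all genes with at least 5 CPM were lower in cluster 1 and 2.38% higher. Ikzf2 (Helios) had 455 and 401 CPM, the folate receptor family gene Izumo1r 579 and 594 CPM, Il2ra (CD25) 318 and 350 CPM, and Gpr83, an orphan receptor of Treg cells, 114 and 133 CPM. Of 14 identity genes, 0 passed 1.5-fold between the libraries, where 2.13% of all genes with at least 5 CPM were higher and 2.89% lower in the library labelled ICOS FC.

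Markers of other cell types were checked list by list. Erythroid genes summed to 0 and 0.345 CPM and platelet genes to 0 and 2.07 CPM in the libraries labelled ICOS FC and ICOS WT. The other lists had higher sums, each mostly from 1 or 2 genes. Of the 113 and 100 CPM of the myeloid list, the protease inhibitor gene Cst3 gave 101 and 94.6 CPM, and Itgam had no UMI. Of the 79.5 and 70.1 CPM of the plasma cell list, Xbp1, a factor of the unfolded protein response, gave 78.0 and 69.7 CPM, and Sdc1 had no UMI. Pecam1 (CD31), which T cells can also carry, gave 80.9 and 94.6 CPM of the 80.9 and 95.6 CPM of the stroma and endothelium list, against 42.1 and 47.7 CPM in the other LN cells, and Col3a1, Cdh5 and Sparc had no UMI. B cell genes summed to 44.2 and 47.3 CPM, of which Cd74 gave 28.1 and 37.98 CPM, with Ms4a1 at 0. CD8 T and NK cell genes summed to 20.7 and 25.5 CPM, with Ncr1 and Klrb1c at 0. Conventional CD4 T cell genes summed to 165 and 159 CPM, with Il21 at 0, against 128 and 169 CPM in the other LN cells. That sum leaves out Igfbp4, which had 259 and 405 CPM. Igfbp4 was planned as a marker of conventional CD4 T cells as well as of cluster 1. The part of other cell types in the results was not tested.

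Of the 6 marker genes, Gata1 alone was highest in cluster 1 in both libraries, with cluster 3 next. The cells were grouped by such genes and the label rests on them, so their levels are a description and do not support it. Gata1, a transcription factor best known from red cell development, had 39.9 CPM in the library labelled ICOS FC and 44.2 CPM in that labelled ICOS WT, against 8.68 and 7.41 CPM in the other LN cells, and its level was the highest of the 8 clusters in both libraries. Igfbp4, an insulin-like growth factor binding protein, had 259 and 405 CPM, against 64.5 and 97.4 CPM. Ly6c1, a GPI-anchored surface protein of memory and naive-like T cells, had 399 and 522 CPM, against 75.7 and 127 CPM. Cluster 5 exceeded cluster 1 for both, with 300.4 and 672 CPM of Igfbp4 and 534 and 734 CPM of Ly6c1. Bcl2 had 648 and 638 CPM, against 220.3 and 171 CPM, and was higher only in cluster 6 (1001 and 733 CPM), whose cells had median depths of 1787.5 and 2022 UMIs. Treml2, a receptor of the TREM family, had 98.0 and 105 CPM and stood 3rd and 4th among the clusters. Atp1b1, a sodium pump subunit, had 33.9 and 34.9 CPM and stood 4th in the library labelled ICOS FC and 1st in that labelled ICOS WT.

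**Figure D1:**
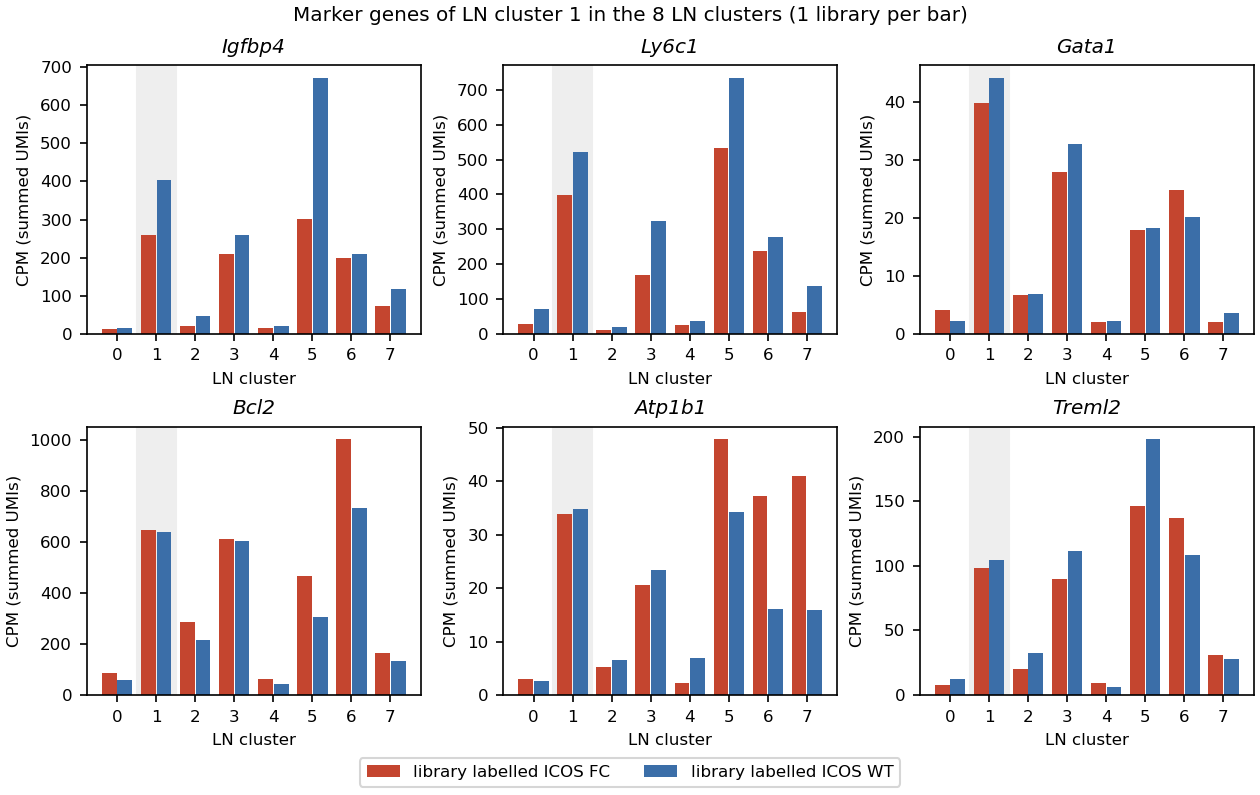
Level in CPM of the 6 marker genes (1 panel each) in the 8 LN clusters, with the library labelled ICOS FC in red left of the library labelled ICOS WT in blue. Each bar is 1 library and has no error; cluster 1, shaded, leads for Gata1 (39.9 and 44.2 CPM), while cluster 5 is higher for Igfbp4 and Ly6c1.

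Free RNA can give a UMI to a cell that does not make the transcript, so the shares of cells were set beside those of cluster 0, where Igfbp4 and Gata1 were low. A UMI of Igfbp4 was in 51.6 and 60.7% of cluster 1 cells in the libraries labelled ICOS FC and ICOS WT, against 4.41 and 5.71% of cluster 0 cells, whose median depths were 6957 and 7182 UMIs. After thinning, the shares were 31.1 and 42.7% in cluster 1, against 1.48 and 2.67% in cluster 0. Gata1 was in 22.3% of cluster 1 cells in each library, against 3.23 and 1.71% in cluster 0, and after thinning in 8.76 and 7.43%, against 0.886 and 0.382%. Gzmb was the reverse, with a UMI in 4.84 and 5.45% of cluster 1 cells against 39.2 and 55.4% of cluster 0 cells. Cluster 3, the most alike LN cluster, came much closer to cluster 1 than cluster 0 did. Igfbp4 was in 48.5 and 48.2% of its cells and Gata1 in 19.1 and 21.9%. After thinning these shares were 25.8 and 29.7% for Igfbp4 and 3.44 and 6.25% for Gata1. These genes therefore do not set cluster 1 apart from cluster 3 by their shares of cells.

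Set against all other LN cells, 112 of 5745 genes (1.95%) were at least 1.5-fold higher in cluster 1 in both libraries and 1198 (20.9%) were lower. The counts moved with the scale. Ribosomal protein genes took 430108 and 410754 CPM in cluster 1 in the libraries labelled ICOS FC and ICOS WT, against 308172 and 291600 CPM in the other cells, and the median log2 ratio of all genes was -0.30 and -0.32. With ribosomal protein and mitochondrial genes left out of the totals the counts became 465 higher and 758 lower. Leading genes beside the markers were Tmem108, a membrane protein, with 17.8 and 26.6 CPM against 3.58 and 3.70 CPM, and Bach2, a repressor that restrains effector differentiation, with 71.6 and 74.6 CPM against 24.3 and 28.6 CPM. The actin cross-linker Actn1 had 126 and 141 CPM, against 41.0 and 59.8 CPM.

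At 5 CPM, the minimum used for the gene lists, 2.38% of genes were higher and 21.4% lower in cluster 1. Of 14 resting-state genes, 10 were higher in cluster 1 than in the other cells in both libraries and 1, the IL-7 receptor gene Il7r, was lower, with medians of 1.00 and 1.03 on the log2 scale. S1pr1, the receptor for lymph node exit, stood 1.10 and 1.15 above the other cells, Ccr7 1.01 and 1.07, and Lef1, a factor of naive T cells, 1.00 in both libraries. Of 21 effector genes, all 21 were lower, with medians of -3.36 and -3.50. The resting list holds the marker Igfbp4, and the cells were grouped by their expression. These counts therefore describe the cluster and do not support its label. The cytotoxic protease Gzmb had 13.2 and 11.05 CPM, against 570 and 1684 CPM in the other LN cells of the libraries labelled ICOS FC and ICOS WT. The calcium-binding S100a4 had 4.63 and 8.63 CPM, against 555 and 816 CPM. Klrg1, an inhibitory receptor of terminal effectors, Il10 and Havcr2 (Tim-3) had no UMI in cluster 1 in either library, against 65.9 and 61.1, 21.4 and 32.9, and 16.4 and 21.9 CPM elsewhere. The 14 proliferation genes were all lower, with medians of -1.71 and -2.23.

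Libraries labelled ICOS FC and ICOS WT were compared next. Within cluster 1, 4922 genes reached 20 CPM in a library. Of these 61 (1.24%) had higher levels in the library labelled ICOS FC and 105 (2.13%) were lower, and the median log2 ratio of the 8307 genes with at least 5 CPM was -0.04. At 2-fold 14 were higher and 9 lower. The genes that were higher included cell cycle genes, whose UMIs came from very few cells, and Icos and Itgb1. Those that were lower included AP-1 and immediate early genes, the marker Igfbp4, and surface proteins such as Ly6c2 and Thy1.

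**Figure D2:**
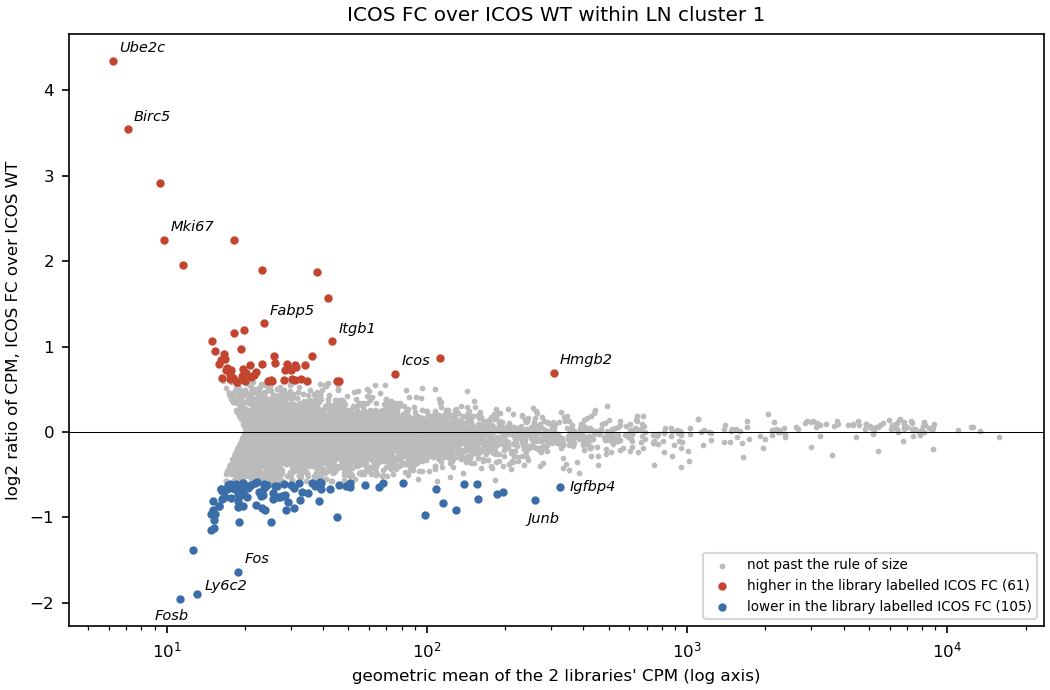
Log2 ratio, ICOS FC over ICOS WT, of CPM within LN cluster 1 (y) against the geometric mean of the CPM of both libraries (x, log axis), for genes that reached 20 CPM in either library and had UMIs in both. Red points are the 61 genes higher and blue points the 105 genes lower in the library labelled ICOS FC; the largest ratios lie at the low levels, with Ube2c at 4.35 and Fosb at -1.95.

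The resting-state genes had a median log2 ratio of -0.07 between the libraries, beside -0.04 over all genes. Of 14, 0 were higher, 1 was lower and 13 lay between, where 2.13% of all genes with at least 5 CPM were higher and 2.89% lower. At any fold, 5 had an interval below equality and 1 above it, where 8.13 and 4.72% of all genes did. Klf2 had 671 CPM in the library labelled ICOS FC and 611 CPM in that labelled ICOS WT, Ccr7 253 and 231 CPM, S1pr1 317 and 333 CPM, and Bcl2 648 and 638 CPM. The gene that was lower was Igfbp4, at -0.64 (-0.78 to -0.51). Its ratio was below 0 in all 8 LN clusters, between -0.07 in cluster 6 and -1.30 in cluster 2, and was -0.59 over the other LN cells. Ly6c1, at -0.39 (-0.50 to -0.28), did not reach 1.5-fold in cluster 1, and its ratio was also below 0 in all 8, with -0.75 over the other cells. A UMI of Ly6c1 was in 52.5% of cluster 1 cells in the library labelled ICOS FC and 64.5% in that labelled ICOS WT.

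The 15 genes of the Foxo, Klf2 and PI3K brake list, which bear on the pathway downstream of ICOS, had 0 members past 1.5-fold in either direction and a median of 0.02. Among all genes with at least 5 CPM, 2.13% were higher and 2.89% lower. Foxo1, a transcription factor that PI3K signalling removes from the nucleus, had 99.8 CPM in the library labelled ICOS FC and 132 CPM in that labelled ICOS WT, a log2 ratio of -0.41 (-0.63 to -0.18) short of 1.5-fold. Pik3ip1, a brake on PI3K, had 84.1 and 79.1 CPM.

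The effector list split. Of 17 members with at least 5 CPM, 3 were higher (Icos, Rora, Itgb1), 2 were lower (Il1rl1, Lgals1) and 12 lay between, with a median of -0.17. Among all genes at that level, 2.13% were higher and 2.89% lower. Itgb1, the integrin β1 subunit, had 62.7 CPM in the library labelled ICOS FC and 30.04 CPM in that labelled ICOS WT, a log2 ratio of 1.06 (0.68 to 1.45). Its 176 UMIs in the library labelled ICOS FC came from 83 cells and its 87 in that labelled ICOS WT from 63 cells. Lgals1, the galectin-1 gene, had 120 and 207 CPM, a ratio of -0.78 (-0.98 to -0.59), and -0.51 in the other LN cells. Il1rl1, the IL-33 receptor ST2, rested on 6 and 20 UMIs, and Rora on 24 and 9. The checkpoint gene Lag3 was higher on 21 and 8 UMIs, and the granule gene Nkg7 was lower on 7 and 42. Ctla4, with 152 and 134 CPM, and Maf, with 45.6 and 39.7 CPM, had intervals that span equality.

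**Figure D3:**
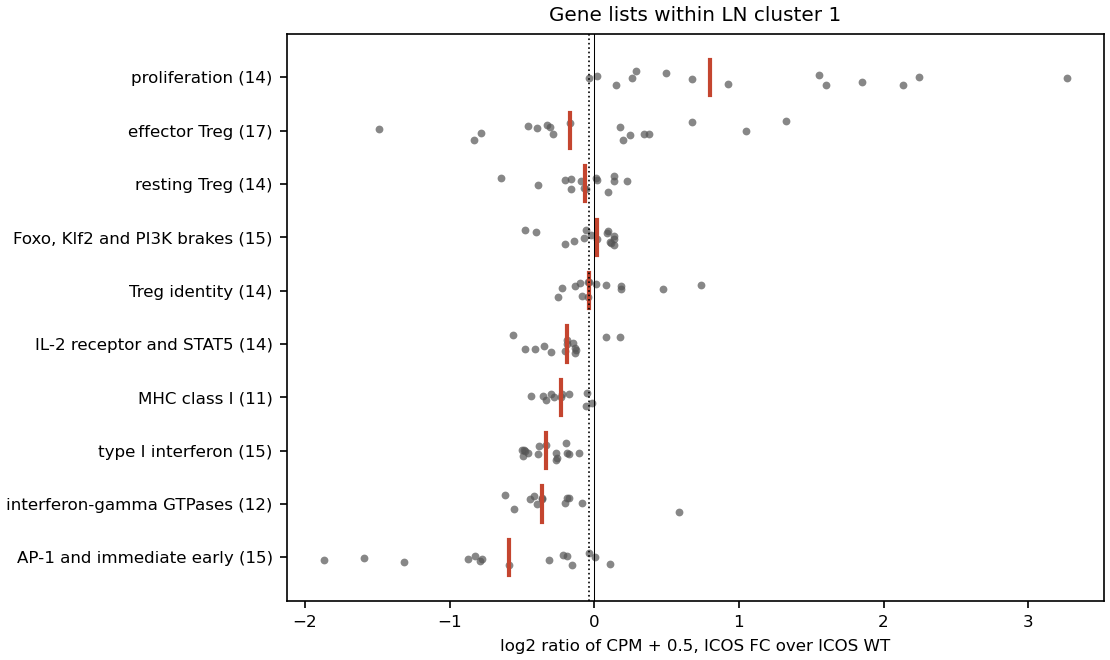
Log2 ratio, ICOS FC over ICOS WT, of CPM with 0.5 CPM added, for each list member with at least 5 CPM in cluster 1 (grey points, the number of members in brackets), with the list's median as a red bar; the dotted line is the median over all genes (-0.04). Proliferation genes lie to the right (median 0.80) and AP-1 and immediate early genes to the left (median -0.59), while resting Treg genes sit near 0.

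Of 14 proliferation genes, 7 had higher levels in the library labelled ICOS FC, 0 were lower and 7 lay between, with a median of 0.80. The shares over all genes with at least 5 CPM were 2.13% higher and 2.89% lower. Ube2c, a ubiquitin enzyme of mitotic exit, had 79 UMIs in 12 cells of the library labelled ICOS FC and 4 UMIs in 3 cells of that labelled ICOS WT, and 49 of the 79 UMIs were in 1 cell. Mki67, which encodes the Ki-67 antigen, had 60 UMIs in 13 cells and 13 UMIs in 10 cells, and 5 cells held 85.0% of the UMIs in the library labelled ICOS FC. Top2a, a topoisomerase, had 126 UMIs in 23 cells and 35 UMIs in 16 cells, with 83.3% in 5 cells. Birc5 (survivin), Pclaf, Hist1h1b and Stmn1 showed the same concentration, with 88.2, 83.8, 93.2 and 81.2% of the UMIs in 5 cells. Counting intervals take no account of this concentration. The replication genes Mcm2 (18.2 and 17.95 CPM) and Mcm5 (18.2 and 18.6 CPM) had intervals that span equality. In cells called G1 the list's median was 0.03, and without the 5% of cells of each library with most UMIs it was -0.05. The phase calls rest on scores for S and G2M, so the choice of G1 cells is not independent of cell cycle transcripts. In cells with a Foxp3 UMI (135 in the library labelled ICOS FC, 150 in that labelled ICOS WT) the list's median was -0.70. Top2a stood at -2.88 and Mki67 at -1.11 there, the opposite sign. Of these genes the whole cluster held only 35 and 13 UMIs in the library labelled ICOS WT. The ratios in this subset therefore rest on few UMIs.

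Some genes that were higher were spread over more cells. Fabp5, a fatty acid binding protein, had 36.7 CPM in the library labelled ICOS FC and 15.2 CPM in that labelled ICOS WT, from 57 and 30 cells, a log2 ratio of 1.27 (0.75 to 1.82). Still, 5 cells held 40.8% of the Fabp5 UMIs in the library labelled ICOS FC. AC149090.1, a gene model with no described role, had 153 and 83.6 CPM from 212 and 166 cells, a ratio of 0.87 (0.64 to 1.10). It was higher in all 8 LN clusters, between 0.58 and 1.32, and in spleen cluster 0 at 1.06. Psmg2, a chaperone of proteasome assembly, had 29.9 and 13.1 CPM from 69 and 36 cells. Capn3, a calpain protease, had 27.1 and 12.1 CPM.

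The AP-1 and immediate early genes held more members that were lower than any other list. They encode the Fos and Jun transcription factors and other products that cells make within minutes of a stimulus such as antigen receptor signalling. Promoters of Fos, Fosb, Junb and Jun are shown, the Fos and Jun family genes among the ranked genes that were lower; each is the 250 bases before the start in RefSeq on build GRCm38.p6, read 5' to 3' on the gene's strand, and the capitals mark TGACG on either strand, the core of cyclic AMP response elements.
Fos (chr12:85473640-85473889, plus strand): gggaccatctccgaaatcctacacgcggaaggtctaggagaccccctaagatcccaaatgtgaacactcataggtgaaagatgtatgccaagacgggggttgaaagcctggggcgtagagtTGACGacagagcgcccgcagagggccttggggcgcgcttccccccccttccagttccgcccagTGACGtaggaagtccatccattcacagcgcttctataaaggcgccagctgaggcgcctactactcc
Fosb (chr7:19310046-19310295, minus strand): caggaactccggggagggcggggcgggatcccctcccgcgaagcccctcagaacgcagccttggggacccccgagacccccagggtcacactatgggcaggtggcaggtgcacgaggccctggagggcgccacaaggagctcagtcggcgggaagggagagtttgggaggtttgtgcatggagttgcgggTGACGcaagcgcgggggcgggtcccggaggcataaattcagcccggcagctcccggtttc
Junb (chr8:84978749-84978998, minus strand): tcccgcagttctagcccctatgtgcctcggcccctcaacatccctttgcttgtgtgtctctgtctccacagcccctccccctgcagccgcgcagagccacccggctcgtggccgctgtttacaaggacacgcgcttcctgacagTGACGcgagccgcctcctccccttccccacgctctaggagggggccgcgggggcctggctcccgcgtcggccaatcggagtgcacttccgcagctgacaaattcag
Jun (chr4:95052223-95052472, minus strand): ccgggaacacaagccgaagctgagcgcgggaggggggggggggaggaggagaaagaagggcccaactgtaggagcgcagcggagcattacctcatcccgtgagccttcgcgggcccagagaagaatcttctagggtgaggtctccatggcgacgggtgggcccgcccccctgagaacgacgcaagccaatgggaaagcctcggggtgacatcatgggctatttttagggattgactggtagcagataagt
The Jun window holds no TGACG, and of the windows shown that of Fos holds it at 2 places. TGACG was present in the window of 7 of the 14 list genes, of 16, with a promoter in the table (Atf3, Btg2, Dusp1, Fos, Fosb, Junb and Ppp1r15a), and in 19.8% of 27025 genes. A CArG box, the site of serum response factor, was in 1 of the 14 (Zfp36) and in 1.62% of all genes. Overlap of both motifs did not occur in the windows shown. These matches describe letters in a window and do not show binding.

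Of 15 measured members, 8 were lower in the library labelled ICOS FC, 0 were higher and 7 lay between, with a median of -0.59. Over all genes with at least 5 CPM, 2.89% were lower and 2.13% higher. Fosb had 16 UMIs in the library labelled ICOS FC and 64 in that labelled ICOS WT, in 16 and 47 cells, or 5.70 and 22.1 CPM, a log2 ratio of -1.95 (-2.84 to -1.15). Fos had 10.7 and 33.1 CPM, in 25 and 69 cells, a ratio of -1.63 (-2.28 to -1.03). Jun had 86.6 and 154 CPM, a ratio of -0.83 (-1.06 to -0.60). Junb had 198 and 344 CPM, a ratio of -0.79 (-0.94 to -0.64), and after thinning it had a UMI in 31.6 and 47.2% of cells. Ppp1r15a, a stress response gene, had 22.8 and 42.1 CPM, and Zfp36, which destabilises cytokine mRNA, 65.9 and 99.4 CPM. The other lower members were the early growth response factor Egr1, with 19.6 and 33.8 CPM, and Fosl2, on 5 and 15 UMIs. Jund (558 and 649 CPM), Ier2, Ier5, Dusp1, Dusp2, Klf6 and Btg2 did not reach 1.5-fold. Of 8 heat shock genes measured, 0 passed in either direction, with a median of -0.02.

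The same genes were compared elsewhere in the series. In the other LN cells, from the same libraries, Fosb was at -2.13, Fos at -1.10, Jun at -0.87 and Junb at -0.28, and the list's median lay below 0 in 7 of the 8 LN clusters, from -0.59 in cluster 1 to 0.06 in cluster 5. The difference of the Junb ratio, cluster 1 minus the other LN cells, was -0.51 (-0.67 to -0.35). For Jun it was 0.04 (-0.23 to 0.30) and for Fosb 0.18 (-0.68 to 1.03). Spleen cluster 0, the spleen cluster with the most similar profile (Pearson correlation of log2 CPM 0.964 in the libraries labelled ICOS FC and 0.962 in those labelled ICOS WT), went the other way. There 7 of 14 members had higher levels in the library labelled ICOS FC and 0 were lower, with a median of 0.55. Of the 4796 genes of spleen cluster 0 with at least 20 CPM, 0.375% were higher and 0.188% lower. The share at the 5 CPM used for the list was not taken. Fos had 67.7 CPM in the spleen library labelled ICOS FC and 13.3 CPM in that labelled ICOS WT, a ratio of 2.35 (2.08 to 2.63), and Junb 528 and 236 CPM, a ratio of 1.16 (1.09 to 1.23). Tissue, challenge and library cannot be told apart between the LN and the spleen.

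**Figure D4:**
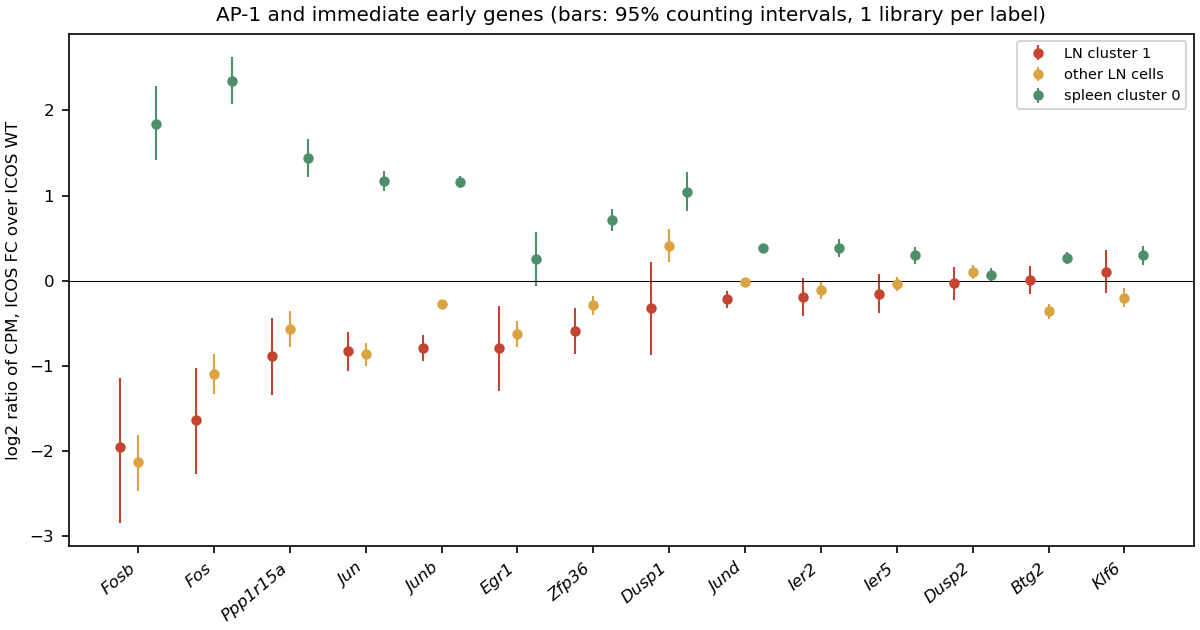
Log2 ratio, ICOS FC over ICOS WT, of the CPM of 14 AP-1 and immediate early genes in LN cluster 1 (red), the other LN cells (yellow) and spleen cluster 0 (green), with 95% counting intervals; each label is 1 library per tissue. The LN ratios of Fosb, Fos, Ppp1r15a, Jun and Junb lie below 0 and the spleen ratios of these 5 genes above it.

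Interferon-induced genes lay lower by steps that were mostly short of 1.5-fold. Of 15 type I interferon genes, 0 passed 1.5-fold, the interval of 12 lay below equality and of 0 above, and the median was -0.33. By the 1.5-fold rule, 2.13% of all genes with at least 5 CPM were higher and 2.89% lower. Abundant genes have narrow intervals: at any fold, 8.13% of genes with at least 5 CPM had an interval below equality and 4.72% above it, and 20.5 and 11.3% of those with at least 100 CPM. Ribosomal protein genes, the most abundant list, had 61 of 82 intervals above equality with a median of 0.06. Isg15, a ubiquitin-like antiviral protein, had 326 CPM in the library labelled ICOS FC and 456 CPM in that labelled ICOS WT (-0.48, interval -0.61 to -0.36), and Ifit3, another antiviral protein, 117 and 163 CPM. Of 12 interferon-γ-induced GTPase genes, 1 was lower (Gbp8) and 9 had an interval below equality, with a median of -0.36. Igtp, one of these GTPases, had 301 and 410 CPM. Of 11 MHC class I genes, which are abundant, 10 had an interval below equality and 0 passed 1.5-fold, with a median of -0.23. B2m, the light chain, had 2816 and 3175 CPM, and the peptide transporter Tap1 169 and 214 CPM. The giant E3 ligase Rnf213, itself interferon-induced, was lower at -0.91 (-1.13 to -0.69), with 94.4 and 177 CPM.

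The cells of cluster 1 were mixed in this respect. The cell table holds an earlier cluster number, and 29 cells (7.02%) in the library labelled ICOS FC and 53 cells (12.6%) in that labelled ICOS WT carried number 6, whose cells had 1105 and 1169 CPM of Isg15. Cells of number 2, 69.5 and 72.5% of the cluster, had 218 and 362 CPM. Within number 2 alone the median of the type I interferon list was -0.41. In the LN as a whole the list's median was -0.28, in LN cluster 4 it was 0.20, and in spleen cluster 0 it was 0.06.

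Receptor genes for IL-2 and other cytokines mostly lay short of 1.5-fold. Of 14 IL-2 receptor and STAT5 genes, 0 passed 1.5-fold and 6 had an interval below equality, with a median of -0.19. The median of this list was 0.15 in LN cluster 0, 0.36 in cluster 4 and 0.58 in cluster 5. In cluster 5, with 104 and 119 cells, 5 of 14 were higher. Of all its 4915 genes with at least 20 CPM, 3.11% were higher, and the share at 5 CPM was not taken. Il2rb had 335 CPM in the library labelled ICOS FC and 427 CPM in that labelled ICOS WT, Il2rg 300.03 and 369 CPM, and the feedback inhibitor Socs3 151 and 223 CPM, a log2 ratio of -0.56 (-0.74 to -0.38). Of 16 cytokine receptor genes, 2 were lower (Il15ra and Il1rl1, on 16 and 36 and on 6 and 20 UMIs) and 9 had an interval below equality. Among all genes with at least 5 CPM in cluster 1, 2.89% were lower and 8.13% had an interval below equality at any fold.

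Among surface and other genes that were lower, some were lower outside cluster 1 as well. Thy1, a GPI-anchored T cell protein, had 145 CPM in the library labelled ICOS FC and 239 CPM in that labelled ICOS WT, a log2 ratio of -0.72 (-0.90 to -0.54), and its ratio was between -0.59 and -1.03 in the 8 LN clusters and -0.61 in spleen cluster 0. Med10, a Mediator subunit, had 70.6 and 138 CPM, a ratio of -0.97 (-1.23 to -0.72), with -1.20 in the other LN cells and -1.09 in spleen cluster 0. Myo6, an unconventional myosin, had 32.1 and 63.9 CPM from 40 and 78 cells. Gadd45g, a stress response gene, had 17.5 and 36.3 CPM, a log2 ratio of -1.05 (-1.57 to -0.55), against a ratio of 0.06 in the other LN cells. Ly6c2 had 19 and 73 UMIs, or 6.77 and 25.2 CPM, a ratio of -1.90 (-2.71 to -1.15). Ly6c2 and its neighbour Ly6c1 are near copies, and 34.4% of the 50-base windows in the last 500 bases of the Ly6c2 transcripts also occur in Ly6c1, so the split of UMIs between them is uncertain.

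Of the 61 genes that were higher in cluster 1, 36 had a ratio clear of equality in the same direction in the other LN cells, and 3 in the opposite one. Of the 105 that were lower, 55 were clear in the same direction and 4 in the opposite one. These cells share the libraries of cluster 1. In spleen cluster 0, from other libraries, 43 of the 61 reached 20 CPM, of which 8 were clear in the same direction and 3 in the opposite one. Of the 105, 67 reached 20 CPM, and 15 were clear in the same and 11 in the opposite direction. By the 1.5-fold rule, the library labelled ICOS FC of that cluster had 18 higher genes (0.375%) and 9 lower genes (0.188%) of 4796. The overlap counts above ask only for a clear interval, at any fold. The share of all genes clear in this way was not taken in either set of cells, so the overlaps cannot be weighed.

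The ratio differed between cluster 1 and the other LN cells by at least 1.5-fold, with a counting interval clear of 0, for 89 genes upward (1.81%) and 87 downward (1.77%) of 4922. Among the upward genes, Id2, a regulator of effector differentiation, had 20.3 CPM in the library labelled ICOS FC and 15.9 CPM in that labelled ICOS WT within cluster 1, against 92.5 and 185 CPM in the other cells. Its ratios differed by 1.36 (0.79 to 1.93). Ifitm3, an interferon-induced membrane protein, had 37.1 and 34.5 CPM in cluster 1, against 65.3 and 132 CPM, a difference of 1.12 (0.71 to 1.53). Ahnak, a giant scaffold protein, had 35.3 and 19.0 CPM in cluster 1, against 126 and 167 CPM. Among the downward genes, Prg4 (lubricin) had 31.7 and 26.9 CPM in cluster 1, against 66.5 and 21.9 CPM, a difference of -1.37 (-1.85 to -0.89). Batf, an AP-1 family factor of effector Treg cells, had 36.3 and 48.0 CPM, against 294 and 203 CPM, a difference of -0.93 (-1.31 to -0.56). Lrrc32 (GARP), which presents latent TGF-β, had 101 and 104 CPM, against 145 and 87.6 CPM, a difference of -0.77 (-1.02 to -0.51). Because the other cells hold several clusters in different shares in each library, the part of composition in these differences was not tested.

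How far the list medians held was read across the alternatives. The AP-1 and immediate early median lay between -0.36, in cells called G1, and -0.75, in cells of earlier number 2, and the type I interferon median between -0.23 and -0.42. The proliferation, effector and resting medians changed sign, with the resting median at 0.12 in cells with a Foxp3 UMI.

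**Figure D5:**
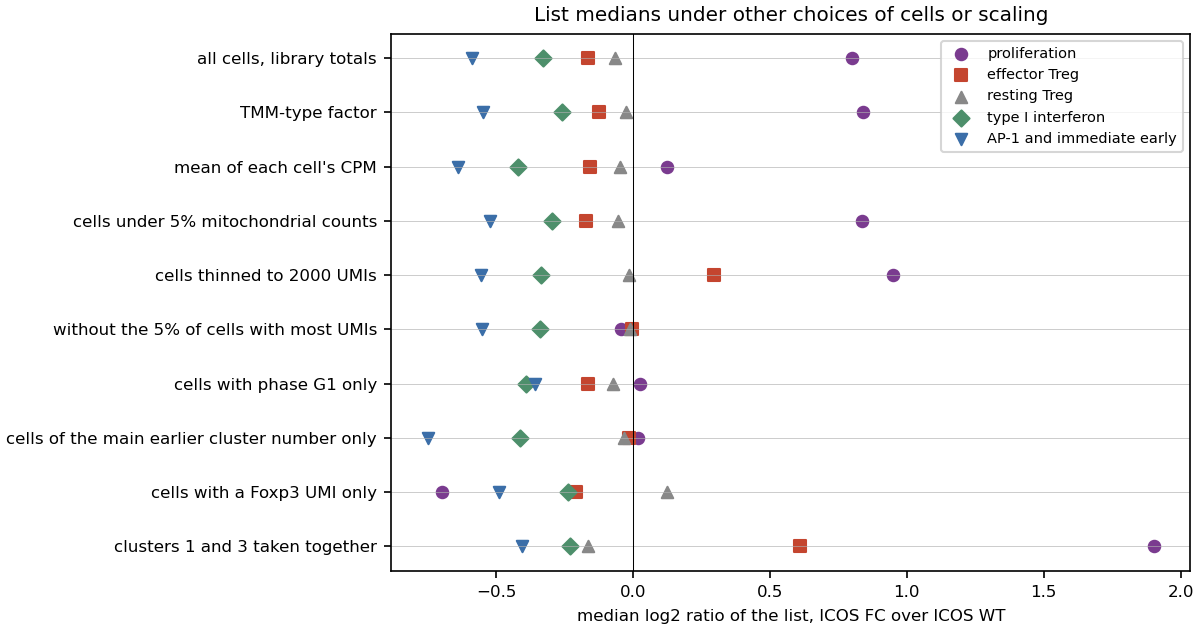
Median log2 ratio, ICOS FC over ICOS WT, of 5 gene lists in cluster 1 (x) under other choices of cells or scaling (y, 1 row each). The AP-1 (triangles pointing down) and type I interferon (diamonds) medians stay below 0 in every row drawn, whereas the proliferation median (circles) runs from 1.90 with cluster 3 added to -0.70 in cells with a Foxp3 UMI.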

How the data were processed

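Per the labels' protocols, live CD4+ TCRβ+ YFP+ cells were sorted and 10x Genomics 3' libraries made with version 3.1 chemistry. There were 4 libraries, 1 per group. Build GRCm38.p6 (mm10), Seurat 3.0, R 3.6.1 and Cell Ranger 4.0.0 are named in the submitters' processing notes. Whether doublets were removed is not stated. The authors deposited expression as log values (natural log) of each cell's UMIs scaled to a total of 10000, plus 1. Their deposited cell tables give the UMI count, the percent of mitochondrial counts, phase scores (a score each for S and G2M) and cluster numbers. Table entries Control and KO were read as ICOS WT and ICOS FC; only the wording links them.

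Each log value was turned back into UMIs with the cell's deposited count. Within 0.001, 100% of the 8798056 LN values came out whole, and the totals of all 3963 cells matched. Deposited LN cells had at least 500 UMIs and at most 9.99% mitochondrial counts; no cell was removed here and no doublet caller was run. UMIs were summed per library and cluster and divided by that cluster's total (Python 3.11.15, numpy 2.4.6, scipy 1.17.1, pandas 2.3.3, matplotlib 3.10.9). The LN libraries held 17330489 (ICOS FC) and 15045805 (ICOS WT) UMIs.

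Ratios have exact conditional Poisson intervals, shares exact Clopper-Pearson intervals and differences of ratios Wald intervals from the summed UMIs, at 95%. With 1 library per group the planned comparisons carry no test. Lists were described by members with at least 5 CPM, their count past 1.5-fold with an interval clear of equality, and their median with 0.5 CPM added. The calculation was tested on simulated data. Named genes were Icos, Foxp3, the 6 markers, the 15 extreme genes in each direction between the libraries by the interval bound nearest equality, 12 in each direction against the other LN cells, 10 in each direction for the difference, and up to 4 members per list or those with at least 100 CPM; not all are printed. T cell receptor and immunoglobulin segments, haemoglobin, mitochondrial, sex-linked and Gm or Rik models stayed out of the rankings. Members, lists and rules were chosen with earlier results of these data known. List genes given outside that rule, and the spleen comparison, were chosen after their values were seen. The alternatives varied scaling, depth, pooling, thresholds and the cells used. Some list members are not reported here.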

Additional observations from a re-analysis of the deposited data

Results flagged for a closer look

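The genes here had a ratio of ICOS FC over ICOS WT on opposite sides of equality in cluster 1 and in a second set of cells. Both counting intervals were clear of equality, and genes had to reach 20 CPM in a cluster 1 library. Against the other LN cells, the ratio in cluster 1 also had to pass 1.5-fold, which left out Batf (-0.40 in cluster 1, 0.53 elsewhere). Against spleen cluster 0, only the immediate early list was compared, and no fold was asked for. With 1 library per label, no difference was tested across animals.

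Between cluster 1 and the other LN cells, 3 genes had more of their transcript under the ICOS FC label in cluster 1 and less of it elsewhere. Their log2 ratios differed by 1.30 for Ahnak (0.89 in cluster 1, -0.41 elsewhere), 1.03 for N4bp2 (0.74 and -0.29) and 1.08 for Pdzd8 (0.73 and -0.34). The reverse held for Bcl3, a nuclear partner of NF-κB, with a difference of -0.78 (-0.63 and 0.15), Rcn1 with -0.79 (-0.60 and 0.20), Rpp14 with -1.01 (-0.76 and 0.25) and Tars, a threonyl-tRNA synthetase, with -1.09 (-0.77 and 0.32).

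Between LN cluster 1 and spleen cluster 0, the median of the immediate early list differed by -1.14 (-0.59 in the LN and 0.55 in the spleen). The log2 ratios differed by -3.98 for Fos, -3.80 for Fosb, -2.33 for Ppp1r15a, -2.0005 for Jun, -1.95 for Junb, -1.30 for Zfp36 and -0.61 for Jund. Fosl2, below 20 CPM, also lay on opposite sides, with a difference of -2.70 on few UMIs. Of 8 heat shock genes, 0 passed 1.5-fold in cluster 1.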

How the results depend on the processing

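No paired analysis was possible because each group was 1 library. No sample could be left out for the same reason. Alternatives that joined cluster 3, removed shared barcodes, rescaled cluster 1 against the other cells or kept G1 cells for the difference of ratios were chosen after seeing the data. The count of genes higher in the library labelled ICOS FC was 61, and became 158 without ribosomal protein and mitochondrial genes in the total, 104 in cells with a Foxp3 UMI, 177 at 5 CPM, 222 with no minimum level, 14 at 2-fold and 111 with cluster 3 added. The count of genes lower was 105, and became 201 in thinned cells, 169 with the mean of each cell's CPM, 181 in cells with a Foxp3 UMI, 160 in earlier cluster number 2, 240 at 5 CPM, 271 with no minimum level, 9 at 2-fold and 38 with cluster 3 added. Of the first, 17 of 104 genes in cells with a Foxp3 UMI and 34 of 111 with cluster 3 added were among the 61. Of the second, 40 of 201 in thinned cells and 29 of 38 with cluster 3 added were among the 105. Icos became 1.35 with cluster 3 added and lay between 0.42 and 0.90 in the other alternatives run. Foxp3 became 0.0902 in thinned cells. The resting median became 0.12 in cells with a Foxp3 UMI and -0.17 with cluster 3 added. The effector median (-0.17) became 0.30 in thinned cells, -0.00351 without the 5% of cells with most UMIs, -0.0156 in earlier cluster number 2, 0.20 for members with at least 20 CPM and 0.61 with cluster 3 added, so its sign changed with the setting. The share labelled ICOS WT became 24.4% without clusters 6 and 7; with cluster 3 the shares were 34.2% (ICOS FC) and 29.5% (ICOS WT). Against the other LN cells, 112 higher genes became 41 with clusters weighted equally, 74 in thinned cells and 465 without ribosomal protein and mitochondrial genes, and 1198 lower genes became 758 in the last. For the difference of ratios, 89 and 87 genes became 138 and 176 in thinned cells, and the 87 became 148 in G1 cells. Reversed signs among the named genes were Stmn1 at -0.0476 without the 5% of cells with most UMIs and -0.11 in earlier cluster number 2, Hist1h1b at -0.41 in that number, and, in cells with a Foxp3 UMI, Stmn1 at -1.28, Pclaf at -2.20, Mki67 at -1.11, Top2a at -2.88 and Hmgb2 at -0.0299. Cells with a Foxp3 UMI numbered 135 (ICOS FC) and 150 (ICOS WT), and the UMIs behind their ratios were not counted. The causes were not tested. A TMM-type factor moved all ratios by 0.04. A count of 0 allows up to 1.07 CPM (ICOS FC) and 1.04 CPM (ICOS WT). Calls at a few CPM, such as Fosl2 on 5 and 15 UMIs, rest on few UMIs.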
